A study of Mus musculus with 16 samples.

Results

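The interferon-induced GTPases examined here are 10 mouse genes of 3 protein families: the Mx genes Mx1 and Mx2, the guanylate-binding protein genes Gbp2, Gbp3 and Gbp7, and the immunity-related GTPase (IRG) genes Irgm1, Irgm2, Igtp, Iigp1 and Gm12250. They were taken by gene symbol from the 24497 genes of the deposited tables. All 10 were found and all 10 passed the filter on low counts. The libraries were made from poly(A) RNA of C2C12 cells, a mouse skeletal muscle myoblast line that proliferates in growth medium and fuses into myotubes in differentiation medium. There are 16 libraries, 2 for each of the 8 combinations of genotype, vector and culture condition. The genotype is given as wild type (WT) or MYOD-/-, the latter made with CRISPR-Cas9 and found by screening single cells (how many clones were used is not stated). The vector is an empty control (EV) or one coding for spliced MUNC (ovMUNC), a noncoding RNA, and both were integrated by stable transfection. RNA came from proliferating (GM) or differentiating (DM) cells, and every group shares the labelled source, skeletal muscle of C57BL/6 mice at postnatal day 21, although C2C12 is usually described as derived from another strain. Whether paired libraries are separate cultures is not stated, and p-values then measure a spread that may be technical.

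Cells respond to type I interferon through the receptor chains Ifnar1 and Ifnar2, the kinases Jak1 and Tyk2 and a transcription factor complex that holds Stat2 and Irf9 and binds the interferon-stimulated response element (ISRE). Type II interferon (Ifng) acts through factors that bind the gamma-activated site (GAS) and through Irf1. Mx proteins are dynamin-like GTPases that act against viruses, Mx1 in the mouse nucleus against influenza virus and Mx2 in the cytoplasm. Guanylate-binding proteins and IRG proteins gather on the vacuoles of intracellular parasites and bacteria and break them open. Among the IRG proteins, Irgm1, Irgm2 and Igtp (also named Irgm3) are the regulators that keep the effectors inactive on the cell's own membranes, and Iigp1 (also Irga6) and Gm12250 (also Irgb10) are effectors.

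Libraries held between 35832002 and 107732971 estimated counts. The deleted gene went against the genotype labels: Myod1 stood at 0.0149 to 0.291 TPM (kallisto's level scaled to transcript length and library total) in the 4 WT-labelled EV libraries and at 12.1 to 39.7 TPM in the 4 MYOD-/- labelled EV libraries. Which part of Myod1 was deleted is not stated, and the words "WT-labelled" and "MYOD-/- labelled" are therefore kept throughout. The vector's transcript, listed as Gm45923, reached 10398 to 15551 TPM in the WT-labelled ovMUNC libraries, but only 283 to 750.0 TPM in the MYOD-/- labelled ovMUNC libraries, against 6.72 to 86.4 TPM in all 8 EV libraries. Replicate number also marked a difference between libraries: the gene Zrsr1 held 1.49% to 13% of the counts in the replicate 2 libraries and 0.00795% to 0.0348% in the replicate 1 libraries.

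RefSeq's promoter table for GRCm38.p6 (250 bases before to 50 after each annotated start) holds 7 of the 10 genes: Gbp2, Gbp3, Gbp7, Irgm1, Irgm2, Igtp and Gm12250. Mx1, Mx2 and Iigp1 have no entry. The windows below are shown because every one of the 7 genes carries the letters of the ISRE core within 91 bases of its start. The Igtp and Irgm2 windows show a GAS match beside the core. In Gm12250 the GAS match lies between its ISRE cores, and Irgm1 has no GAS match. Capitals mark matches to the ISRE core (GAAA, any 2 bases, GAAA) and the GAS letters (TTC, any 3 bases, GAA), searched on both strands, so that repeats of TTTC are the core read on the opposite strand. Overlapping matches were merged in the capitals.
Igtp: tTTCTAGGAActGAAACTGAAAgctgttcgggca
Irgm2: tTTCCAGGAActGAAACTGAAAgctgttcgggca
Gm12250: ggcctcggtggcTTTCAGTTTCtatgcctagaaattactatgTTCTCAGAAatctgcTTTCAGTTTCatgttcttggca
Irgm1: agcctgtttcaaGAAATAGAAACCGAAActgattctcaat
Gbp2: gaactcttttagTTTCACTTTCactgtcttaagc
Gbp3: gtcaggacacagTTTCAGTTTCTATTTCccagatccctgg
Gbp7: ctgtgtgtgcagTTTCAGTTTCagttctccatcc

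These windows lie at chr11:58199510-58199543 (Igtp), chr11:58214901-58214934 (Irgm2), chr11:58183740-58183818 (Gm12250), chr11:48871423-48871462 (Irgm1, minus strand), chr3:142620592-142620625 (Gbp2), chr3:142559987-142560026 (Gbp3) and chr3:142530271-142530304 (Gbp7), on the plus strand where no strand is named. Across all 32851 promoters of the table, 3.44% held the ISRE core and 8.30% the GAS letters. Counted by gene, as for the members, these were 3.99% and 9.55% of 27025 genes. Among the members the ISRE core was in 7 of 7 genes and the GAS letters in 4 of 7, namely Gbp7, Irgm2, Igtp and Gm12250. For Gbp3, 1 of its 2 promoter entries held the core, and the GAS matches of Gbp7 lie outside its window. Of the other GTPases of these families, 6 of 8 with an entry held the core and 4 of 8 the GAS letters. The whole Igtp and Irgm2 promoters matched in 91.1% of 271 aligned columns, and in both the GAS letters end 2 bases before the ISRE core begins. Irgm1 and Gbp3 have 2 overlapping ISRE cores, and Gm12250 has 2 separate ones. A match to letters is a description of the sequence and not a measured binding site.

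**Figure D1:**
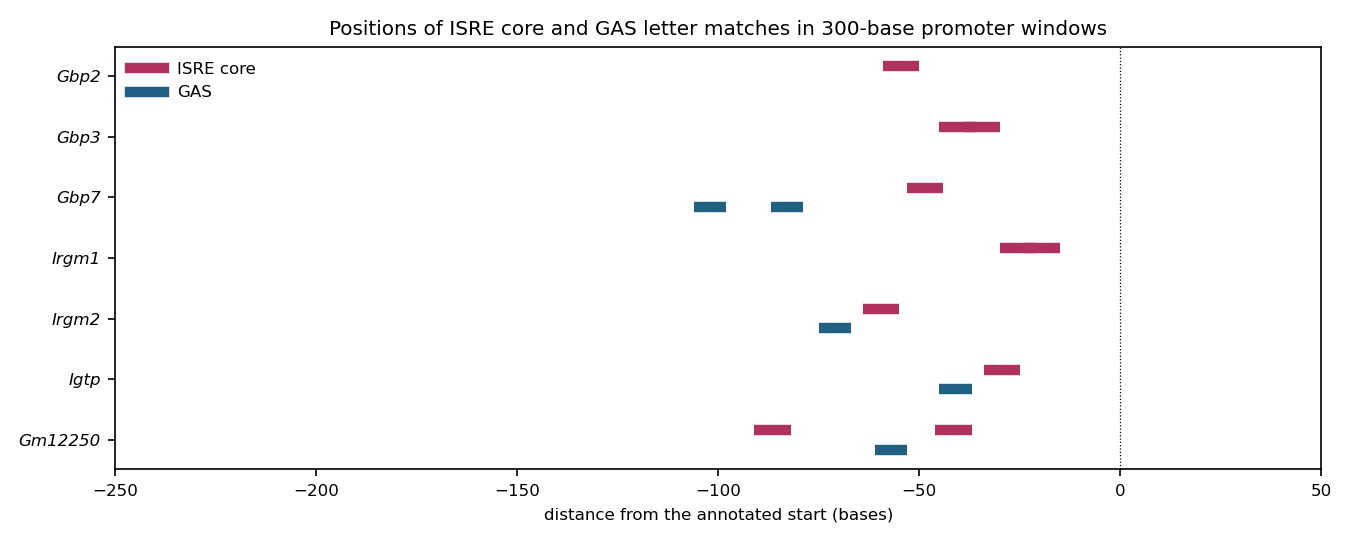
Each bar is a match to the ISRE core (red) or the GAS letters (blue) in the promoter of 1 of the 7 genes with a RefSeq entry, placed by distance in bases from the annotated start (dotted line at 0). All ISRE cores lie between 91 and 15 bases before the start, and the GAS matches of Igtp and Irgm2 stand directly in front of the ISRE core.

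In proliferating cells 9 of the 10 genes were near zero in every line, and Irgm1 was the exception. Over the 8 GM libraries the 9 others lay between 0 and 2.02 CPM (counts scaled to TMM-adjusted library size, used here to compare 1 gene between libraries), while Irgm1 lay between 19.8 and 61.9 CPM. On the TPM scale, which allows genes to be compared, Irgm1 made up 90.2% to 97.2% of the summed level of the 10 genes in the GM libraries. In the 2 WT-labelled EV DM libraries its share was 21.3% and 19.5%, and Igtp held 18.8% and 21.5%. The summed level of the 10 genes rose from 50.2 ± 7.92 TPM (mean ± SD, n = 2, as for all values written this way) in WT-labelled EV GM to 2721 ± 290 TPM in WT-labelled EV DM. It was 1231 ± 15.2 TPM in MYOD-/- labelled EV DM, 1080 ± 418 TPM in MYOD-/- labelled ovMUNC DM and 56.5 ± 2.57 TPM in WT-labelled ovMUNC DM. In bulk RNA, more cells that express a gene and more RNA per cell cannot be told apart.

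**Figure D2:**
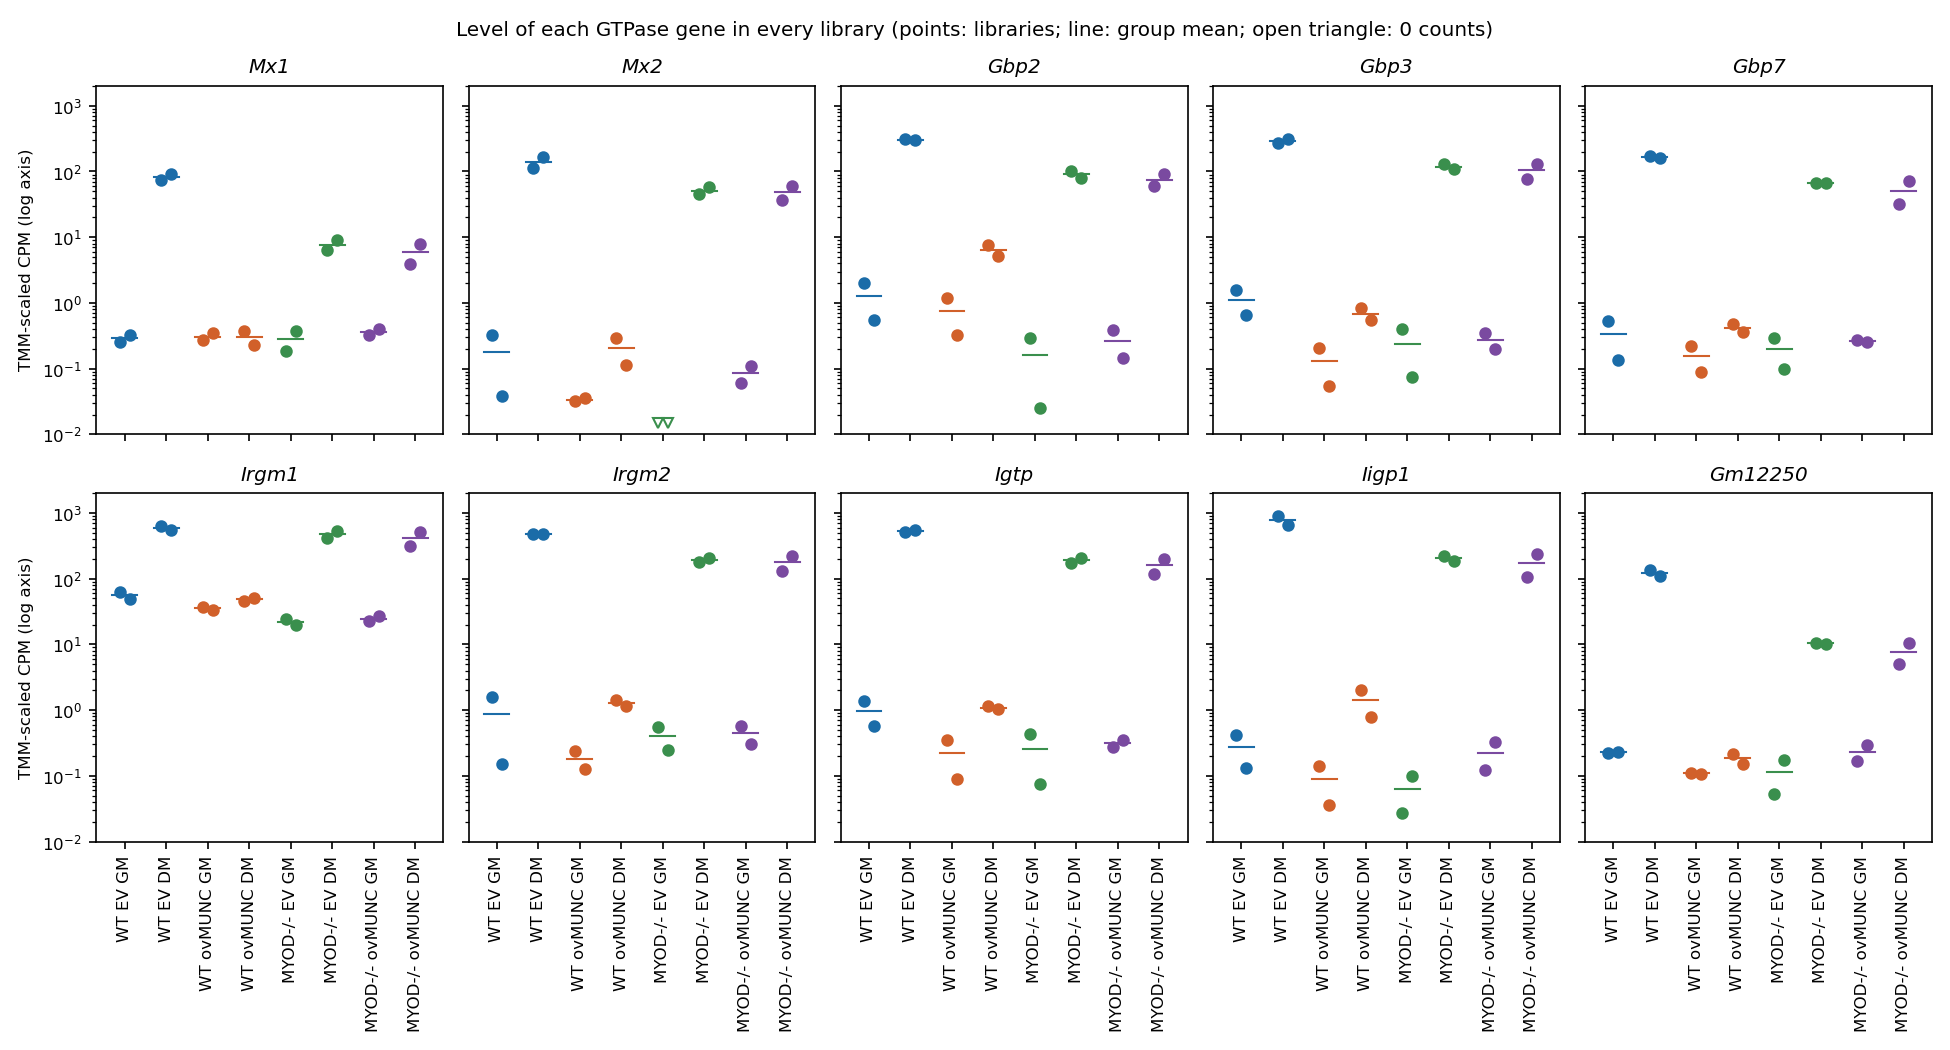
TMM-scaled CPM (log axis) of each gene in all 16 libraries, with 1 point per library, a line at the group mean and open triangles for the 2 libraries with 0 counts of Mx2. In each panel the WT-labelled EV DM pair is highest, the 4 MYOD-/- labelled DM libraries follow, and the WT-labelled ovMUNC DM pair lies below all other DM libraries.

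The first comparison asks what differentiation does to these genes in WT-labelled cells with the empty vector. All 10 rose, against 19.2% of the 14972 genes tested that were called higher (37.5% were called in either direction). Their median log2 fold change was 8.98, beside 0.02 for all genes tested, and the edgeR quasi-likelihood adjusted p-values ranged from 6.95e-07 to 2.06e-05.

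Mx1 was at 0.259 and 0.324 CPM in GM and at 75.1 and 92.2 CPM in DM, a log2 fold change of 8.16 ± 0.45 (SE, as for all log2 fold changes). Mx2 was at 0.323 and 0.0381 CPM in GM and at 115.0 and 164 CPM in DM, a log2 fold change of 9.51 ± 0.63. Both Mx genes were thus close to the detection limit before differentiation, and Mx2 had 20 and 2 counts in the GM libraries. The genes lie at chr16:97447035-97462906 (Mx1, minus strand) and chr16:97536081-97560901 (Mx2, plus strand) in GRCm38.p6. RefSeq lists both as transcribed pseudogenes in this C57BL/6J reference, and the files count their transcripts; which alleles these cells carry was not tested.

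Among the guanylate-binding proteins, Gbp2 went from 2.02 and 0.553 CPM in GM to 310 and 298 CPM in DM, a log2 fold change of 7.86 ± 0.74. Gbp3 went from 1.57 and 0.648 CPM to 275 and 307 CPM, a log2 fold change of 8.02 ± 0.58. Gbp7 went from 0.534 and 0.133 CPM to 172 and 158 CPM, a log2 fold change of 8.90 ± 0.59. The 3 genes lie in 1 cluster on chromosome 3, from chr3:142530336 (Gbp7) to chr3:142638008 (Gbp2) in GRCm38.p6, and in none did the GM and DM libraries overlap, as in 68.2% of all genes tested.

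Among the IRG regulators, Igtp went from 1.37 and 0.572 CPM to 515 and 554 CPM, a log2 fold change of 9.08 ± 0.60. Irgm2 went from 1.57 and 0.153 CPM to 471 and 474 CPM, a log2 fold change of 9.06 ± 0.78. Irgm1 went from 61.9 and 49.9 CPM to 636 and 547 CPM, a log2 fold change of 3.40 ± 0.24. Irgm1 therefore had the smallest fold change of the 10 genes and the highest level before differentiation. The effector Iigp1 went from 0.420 and 0.133 CPM to 909 and 658 CPM, a log2 fold change of 11.42 ± 0.79. The effector Gm12250 went from 0.226 and 0.229 CPM to 138 and 109 CPM, a log2 fold change of 9.07 ± 0.46. On the TPM scale the order in WT-labelled EV DM was Irgm1 (557 ± 94.1), Igtp (545 ± 6.98), Iigp1 (535 ± 153), Irgm2 (268 ± 15.4), Gbp2 (254 ± 22.8), Gbp3 (229 ± 3.39), Mx2 (118 ± 21.8), Gm12250 (94.0 ± 21.5), Mx1 (63.3 ± 5.22) and Gbp7 (58.0 ± 6.90). The first 3 did not differ beyond the spread of their libraries.

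The second comparison asks the same of WT-labelled cells with ovMUNC, where the rise was small. 5 of 10 rose and none fell, against 20.5% of all genes called higher (39.8% either way), and the median log2 fold change was 2.28 beside 0.06 for all genes tested. The 5 were Gbp2, Gbp3, Irgm2, Igtp and Iigp1, with adjusted p-values up to 0.0221. Gbp2 stood at 7.50 and 5.24 CPM in DM against 1.19 and 0.325 CPM in GM (log2 fold change 3.04 ± 0.65). Iigp1 stood at 2.04 and 0.775 CPM against 0.143 and 0.0361 CPM (log2 fold change 3.85 ± 0.81). Mx1 stood at 0.373 and 0.230 CPM in DM and 0.269 and 0.343 CPM in GM, which overlap (adjusted p = 0.911). Irgm1 stood at 45.9 and 51.4 CPM in DM and 37.5 and 33.7 CPM in GM (adjusted p = 0.130). Of the 5 calls, 2 remained when WT-labelled ovMUNC GM replicate 2 was left out and 3 when WT-labelled ovMUNC DM replicate 1 was left out.

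In MYOD-/- labelled cells with the empty vector all 10 genes rose, against 23.5% of all genes called higher (43.2% either way). The median log2 fold change was 8.94 with Mx2 at its lower bound, beside 0.08 for all genes tested. Mx2 had 0 counts in both GM libraries and 44.9 and 57.8 CPM in DM, which is at least 661-fold higher when the GM level is set to 3 counts per library. Iigp1 rose from 0.0268 and 0.1002 CPM to 224 and 189 CPM (log2 fold change 11.60 ± 0.88). Igtp rose from 0.428 and 0.0752 CPM to 170 and 208 CPM (9.57 ± 0.66 on the log2 scale). Gbp2, Gbp3, Gbp7 and Irgm2 had log2 fold changes between 8.41 and 9.17.

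Smaller changes were seen in 3 genes of these cells, Irgm1, Mx1 and Gm12250. Irgm1 rose from 24.1 and 19.8 CPM to 423 and 525 CPM (log2 fold change 4.43 ± 0.26). Mx1 rose from 0.187 and 0.376 CPM to 6.44 and 9.04 CPM (4.76 ± 0.43). Gm12250 rose from 0.0535 and 0.175 CPM to 10.5 and 10.2 CPM (6.45 ± 0.48). For Irgm1 the starting level was high, whereas Mx1 and Gm12250 ended at 6.34 ± 1.18 and 8.52 ± 0.587 TPM, the lowest levels of the 10 genes in that group per transcript length.

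In MYOD-/- labelled cells with ovMUNC all 10 genes again rose, against 24.4% of all genes called higher (44.8% either way), with a median log2 fold change of 8.31 beside 0.05 for all genes tested. Replicate 1 of the DM group was lower than replicate 2 for all 10 genes, by 1.53-fold (Gbp2) to 2.26-fold (Iigp1). Iigp1 stood at 105 and 238 CPM, Igtp at 119 and 199 CPM and Gbp7 at 31.8 and 70.7 CPM. Mx1 stood at 3.94 and 7.86 CPM and Gm12250 at 5.03 and 10.4 CPM. The GM libraries of this group lay at 0.580 CPM or less for 9 genes and at 22.9 and 26.6 CPM for Irgm1.

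**Figure D3:**
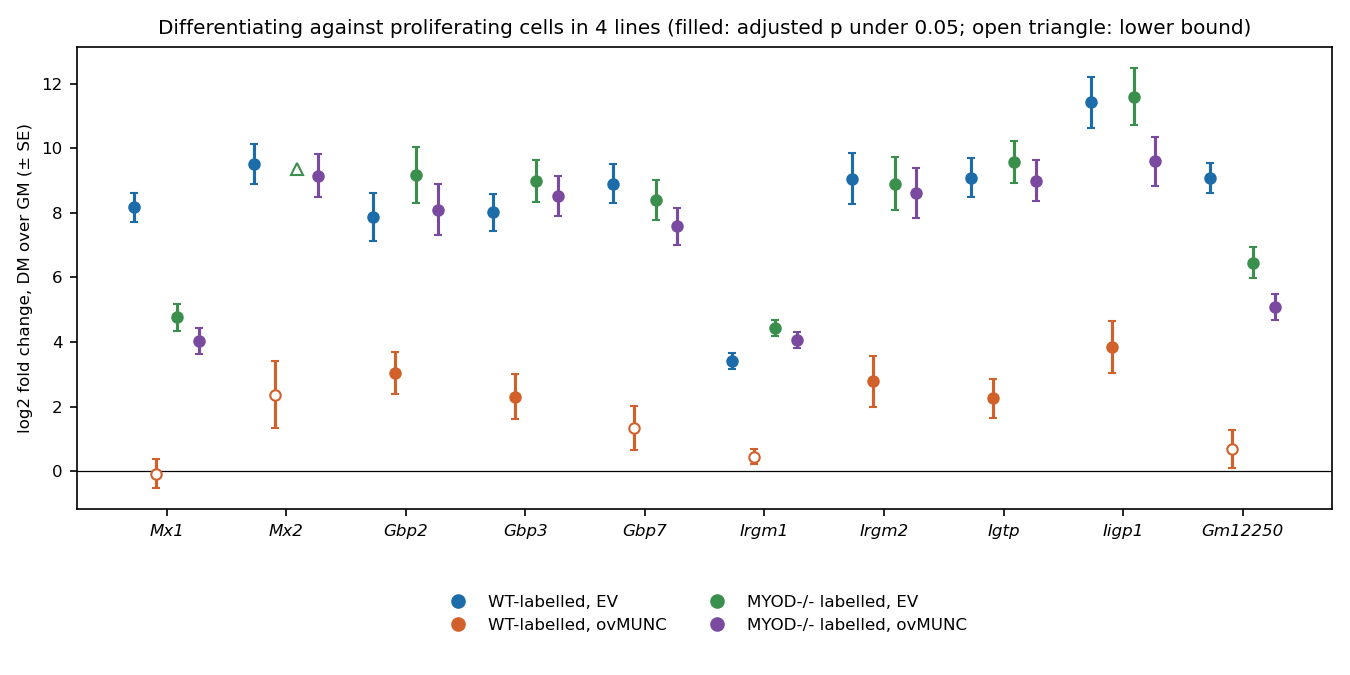
Log2 fold change of DM over GM (± SE, vertical axis) for the 10 genes in the 4 lines; filled points passed an adjusted p of 0.05 and the open triangle is the lower bound of Mx2 in MYOD-/- labelled EV cells. The WT-labelled ovMUNC points lie lowest for every gene, and for Mx1 and Gm12250 the WT-labelled EV point (8.16 and 9.07) stands above the MYOD-/- labelled EV point (4.76 and 6.45).

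Whether the response to differentiation itself differed between lines was tested with interaction terms. Between WT-labelled EV and WT-labelled ovMUNC cells the rise was smaller with ovMUNC for 9 of 10 genes, against 3.33% of all genes called (2.09% in this direction). The differences ran from -2.95 ± 0.32 (Irgm1) to -8.39 ± 0.88 (Gm12250) on the log2 scale; Mx2 did not pass (adjusted p = 0.0912). Leaving out WT-labelled ovMUNC GM replicate 1 left 3 of the 9 calls. Between the genotype labels within ovMUNC cells the rise was larger in MYOD-/- labelled cells for 8 of 10 genes, against 1.38% of all genes called (1.24% in this direction), from 3.62 ± 0.32 (Irgm1) to 6.74 ± 0.93 (Igtp); Iigp1 and Mx2 did not pass. Here 2 calls were left without WT-labelled ovMUNC GM replicate 1 or without WT-labelled ovMUNC DM replicate 2, 4 without WT-labelled ovMUNC DM replicate 1, and 5 without MYOD-/- labelled ovMUNC GM replicate 2 or DM replicate 2. Between the genotype labels within EV cells only Mx1 passed, against 2.58% of all genes called (0.922% lower), and its rise was smaller in MYOD-/- labelled cells by a log2 difference of -3.40 ± 0.62 (adjusted p = 0.0200). The Mx1 call was lost when any 1 of 5 of the 8 libraries was left out: WT-labelled EV GM replicate 1 or 2, WT-labelled EV DM replicate 2, MYOD-/- labelled EV GM replicate 2 or MYOD-/- labelled EV DM replicate 1. Gm12250 had a difference of -2.62 ± 0.79 that did not pass (adjusted p = 0.116). For the interaction of differentiation and ovMUNC in MYOD-/- labelled cells, 0 members and 0 of all genes passed, and 0 members had an unadjusted edgeR p under 0.05.

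The genotype labels were then compared directly in differentiating EV cells. All 10 genes had both MYOD-/- labelled libraries below both WT-labelled ones, where 69.6% of all genes tested did not overlap in either direction, and 8 of 10 were called lower, against 16.1% of all genes called lower (31.4% either way). The median log2 fold change was -1.47, beside -0.02 for all genes tested. Mx1 stood at 6.44 and 9.04 CPM against 75.1 and 92.2 CPM, a log2 fold change of -3.43 with a 95% interval of -4.19 to -2.68. Gm12250 stood at 10.5 and 10.2 CPM against 138 and 109 CPM, a log2 fold change of -3.57 with an interval of -4.31 to -2.84. The next 6 genes, Mx2, Gbp2, Gbp3, Gbp7, Igtp and Iigp1, had log2 fold changes between -1.92 and -1.29. Irgm2 (-1.29, interval -2.48 to -0.09, adjusted p = 0.0960) and Irgm1 (-0.32, interval -0.81 to 0.17, adjusted p = 0.301) did not pass. As ratios of mean CPM, WT-labelled cells were 10.8-fold higher for Mx1 and 11.9-fold for Gm12250, against 1.25-fold for Irgm1; a difference between genes was not itself tested. Ly6a, a marker of fibroblast-like cells that interferon also induces, moved the same way, from 5248 and 4669 TPM in WT-labelled EV DM to 724 and 340 TPM in MYOD-/- labelled EV DM, while Cd34, another marker of that list, was higher in MYOD-/- labelled EV DM (126 and 82.5 TPM against 2.20 and 1.96 TPM); their part in the result was not tested. Within single libraries the TPM of Mx1 was 0.582 and 0.503 of that of Mx2 in WT-labelled EV DM, 0.128 and 0.140 in MYOD-/- labelled EV DM, and 0.0959 and 0.116 in MYOD-/- labelled ovMUNC DM. The ratio of Gm12250 to Igtp fell in the same libraries from 0.199 and 0.146 to 0.0457 and 0.0366 and to 0.0316 and 0.0389. Mx1 and Gm12250 were called when any 1 library was left out, but the count of 8 dropped to 4 without WT-labelled EV DM replicate 1, to 3 without WT-labelled EV DM replicate 2, and to 2 without either MYOD-/- labelled EV DM replicate.

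**Figure D4:**
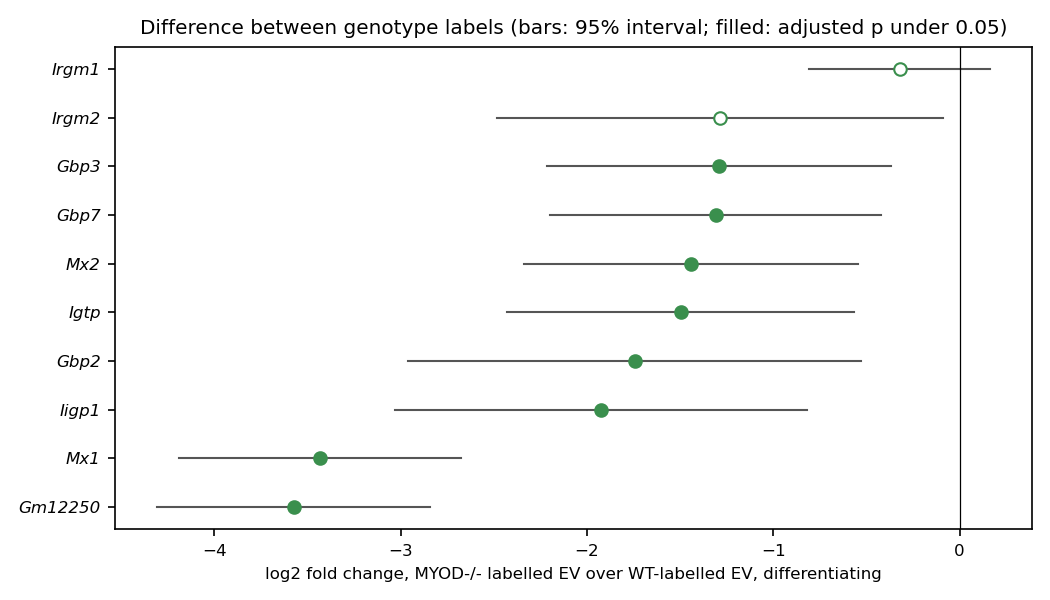
Log2 fold change of MYOD-/- labelled over WT-labelled EV cells in DM (horizontal axis) with 95% intervals; filled points passed an adjusted p of 0.05. Gm12250 (-3.57) and Mx1 (-3.43) lie farthest left, the interval of Irgm1 crosses 0, and the 7 other genes between -1.92 and -1.29.

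With ovMUNC the genotype labels in DM were ordered the other way. All 10 genes were higher in MYOD-/- labelled than in WT-labelled ovMUNC DM cells, against 12.8% of all genes called higher (22.7% either way), with log2 fold changes from 3.10 ± 0.24 (Irgm1) to 8.03 ± 0.60 (Mx2) and a median of 6.98. Igtp stood at 1.14 and 1.04 CPM in WT-labelled ovMUNC DM, against 119 and 199 CPM in MYOD-/- labelled ovMUNC DM.

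The vectors were then compared within each genotype label. Since each was integrated by stable transfection, a difference between vectors cannot be told apart from a difference between the transfected lines. In differentiating WT-labelled cells all 10 genes were lower with ovMUNC than with EV, against 17.7% of all genes called lower (33.3% either way), with a median log2 fold change of -8.71. The change ran from -3.60 ± 0.24 (Irgm1, 591.8 ± 62.7 to 48.7 ± 3.87 CPM) to -9.56 ± 0.62 (Mx2, 139 ± 34.4 to 0.205 ± 0.127 CPM). Gbp2 was the next smallest after Irgm1 at -5.58 ± 0.66 (304 ± 8.08 to 6.37 ± 1.59 CPM). This comparison shares the WT-labelled EV DM libraries with that of the genotype labels in EV cells, and the WT-labelled ovMUNC DM libraries with that in ovMUNC cells. In differentiating MYOD-/- labelled cells 0 of 10 genes passed, 0 had an unadjusted edgeR p under 0.05, and 0% of all genes were called. The log2 fold changes there ran from -0.42 to -0.08, and the 95% intervals together covered -1.46 to 1.05. DESeq2 also called 0 members. The vector's transcript (Gm45923) was at 283 to 750.0 TPM in the MYOD-/- labelled ovMUNC libraries, against 10398 to 15551 TPM in the WT-labelled ones.

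In proliferating cells few of the genes passed. With EV, Irgm1 was called lower in MYOD-/- labelled cells, against 5.77% of all genes called lower (10.4% either way), at 24.1 and 19.8 CPM against 61.9 and 49.9 CPM (log2 fold change -1.35 ± 0.23, adjusted p = 0.00335). This count rose to 4 members without WT-labelled EV GM replicate 2. With ovMUNC 0 members passed between the genotype labels, against 9.99% of all genes called, with 1 unadjusted edgeR p under 0.05 and 0 calls by DESeq2. In WT-labelled GM cells Gbp3 and Igtp were called lower with ovMUNC than with EV, against 7.71% of all genes called lower (13.8% either way). Gbp3 stood at 0.206 and 0.0542 CPM against 1.57 and 0.648 CPM (adjusted p = 0.0122), and Igtp at 0.348 and 0.0903 CPM against 1.37 and 0.572 CPM (adjusted p = 0.0428). Both calls were lost without WT-labelled EV GM replicate 1 and without WT-labelled ovMUNC GM replicate 2. In MYOD-/- labelled GM cells 0 members passed for ovMUNC, with 0% of all genes called, 0 unadjusted edgeR p-values under 0.05 and 0 calls by DESeq2.

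Ranked by mean CPM, the first 3 groups were the same for all 10 genes: WT-labelled EV DM, then MYOD-/- labelled EV DM, then MYOD-/- labelled ovMUNC DM. The libraries of the second and the third overlapped for every gene. WT-labelled ovMUNC DM had rank 4 for 6 genes, rank 5 for 2 and rank 6 for 2. The genes resembled each other over the 8 group means of log2 CPM, with Pearson's r of 0.901 to 0.998 (median 0.976) over the 45 pairs, which share all libraries. Among 10132 other genes with a mean of at least 5 CPM, the 5 most like the mean of the 10 were Irf7, Irf9, Dhx58, Zbp1 and Trim30a (r = 0.998 to 0.996 over 8 groups). Taken singly, Mx1 was most like Isg20 (r = 0.998), and Gm12250 most like Oas3 (r = 0.999). For Gbp2 it was the paralog Gbp2b (r = 0.995), for Igtp Irf9 (r = 0.999), for Iigp1 Zbp1 (r = 0.999) and for Irgm1 Helz2 (r = 0.997).

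For 6 of the 10 genes (Mx1, Gbp2, Irgm1, Irgm2, Igtp and Gm12250) only 1 transcript was listed, so their whole count had to lie on it. For the rest, shares were read in libraries where the gene had at least 100 counts. The main transcript of Gbp3 took 67.4% to 74.3% of its count over 6 libraries. That of Gbp7 took 95.5% to 98.3% over 6 libraries, and that of Iigp1 72.1% to 100% over 7. For Mx2 a noncoding transcript took 95.9% to 97.4% over 6 libraries. Paralogs can exchange reads. Of the 31-base words in the GENCODE M21 transcripts of Igtp, 15.9% also occur in Irgm2, and of those of Gbp7, 10.8% occur in Gm43802 and 3.26% in Gbp3. Of those of Mx1, 7.22% occur in Mx2, and of those of Mx2, 7.96% occur in Mx1. Of those of Gbp2, 4.61% occur in Gbp2b, and of those of Iigp1, 4.63% occur in Gm4951. The values of these genes, and the ratio of Mx1 to Mx2, are uncertain for this reason. The counts were estimated on RefSeq transcripts, which is another set, and whether Gm43802 is in it was not checked. The shares do not measure the size of that uncertainty, which was not tested.

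Other GTPases of the same families, from a list of 21 genes of which 20 were in the files and 19 were tested, were counted in the same comparisons. Gbp8 and Gbp11, named after their values were seen, passed the filter on low counts only through WT-labelled EV DM, so they had to be high there and are left out of the counts. Of the other 17, 17 rose with differentiation in WT-labelled EV cells, 7 in WT-labelled ovMUNC cells, 17 in MYOD-/- labelled EV cells and 15 in MYOD-/- labelled ovMUNC cells. The shares of all genes called higher were 19.2%, 20.5%, 23.5% and 24.4% in the same order. In DM, 15 of 17 were lower in MYOD-/- labelled than in WT-labelled EV cells, against 16.1% of all genes called lower. Tgtp1, an IRG effector, stood at 634 and 360.1 TPM in WT-labelled EV DM, 85.4 and 89.96 TPM in MYOD-/- labelled EV DM and 1.16 and 0.695 TPM in WT-labelled ovMUNC DM. Its near-identical neighbour Tgtp2 stood at 484 and 288 TPM, 127 and 129 TPM and 2.06 and 1.32 TPM in the same groups, and reads could be divided between them either way. Gbp2b stood at 126 and 119 TPM, 59.5 and 53.9 TPM and 2.95 and 1.98 TPM, and Gm4951, an IRG gene, at 123 and 66.5 TPM, 22.3 and 12.4 TPM and 0.148 and 0.0878 TPM. Dynamin relatives that are not interferon genes were counted too, beside 37.5% of all genes called in either direction in WT-labelled EV cells. Of 10 tested, including Dnm2 of endocytosis and Dnm1l of mitochondrial division, 3 rose and 3 fell in WT-labelled EV cells with a median log2 fold change of -0.07, and Dnm1l changed by -0.04 ± 0.20 (adjusted p = 0.902).

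The signalling genes upstream of the GTPases were compared next. Of 16 tested, 9 rose and 0 fell with differentiation in WT-labelled EV cells (median log2 fold change 0.80), 7 rose and 1 fell in WT-labelled ovMUNC cells (0.52), 9 rose and 1 fell in MYOD-/- labelled EV cells (0.57), and 10 rose and 1 fell in MYOD-/- labelled ovMUNC cells (0.53). The shares of all genes called higher were 19.2%, 20.5%, 23.5% and 24.4% in the same order. Irf9 stood at 118 and 91.3 TPM in WT-labelled EV DM, at 73.2 and 61.8 TPM in MYOD-/- labelled EV DM, and at 8.78 and 5.69 TPM in WT-labelled ovMUNC DM. Stat2 stood at 170 and 178 TPM, 113 and 138 TPM, and 17.3 and 15.2 TPM in the same groups. Usp18, which restrains the type I receptor, stood at 499 and 516 TPM, 193 and 192 TPM, and 0.357 and 0.0452 TPM. Irf1 stood at 182 and 166 TPM, 85.8 and 110 TPM, and 69.3 and 54.9 TPM. The kinase Jak1 stood at 83.7 to 108.1 TPM in all 8 DM libraries.

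Type I targets of other kinds were compared between the genotype labels as well. All 10 listed, among them Ifit1, Ifit3, Isg15 and Irf7, rose in WT-labelled EV cells (median 7.19, or 7.04 with 1 gene at 0 in a group set to 3 counts per library) and in MYOD-/- labelled EV cells (median 8.48). Of all genes tested, 19.2% and 23.5% were called higher in these lines. Between the labels in EV DM, 5 of the 10 targets were lower and 1 was higher in MYOD-/- labelled cells. There 16.1% of all genes were called lower (31.4% either way). Ifit1 (0.09 ± 0.46, adjusted p = 0.908) and Ifit3 (-0.15 ± 0.31, adjusted p = 0.737) did not pass, while Irf7 was lower (-1.63 ± 0.36, adjusted p = 0.00575) and so was Isg15 (-1.32 ± 0.37, adjusted p = 0.0198). Of the type II and antigen presentation genes, 5 of 12 were tested, and all 5 rose in WT-labelled EV cells (median 6.22, or 4.19 with 1 gene at 0 in a group set to 3 counts per library). Psmb9, an immunoproteasome subunit, stood at 55.5 and 46.2 TPM in WT-labelled EV DM and at 3.45 and 3.58 TPM in MYOD-/- labelled EV DM. Tap1, a peptide transporter, stood at 49.95 and 62.7 TPM and at 12.1 and 16.2 TPM. Ciita, the activator of class II genes, was at 0.0772 TPM or less in all 16 libraries.

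Transcripts of the interferons were scarce. Of 21 ligand genes 11 had estimated counts that rounded to 0 in all libraries, and 4 were tested. Ifnb1 stood at 0.947 and 1.44 TPM in WT-labelled EV DM, 0.954 and 2.31 TPM in MYOD-/- labelled EV DM, 0.337 and 1.90 TPM in MYOD-/- labelled ovMUNC DM, and 0 and 0.0624 TPM in WT-labelled ovMUNC DM. It was at 0.117 TPM or less in every GM library and was called higher in DM in the 3 lines other than WT-labelled ovMUNC. Within MYOD-/- labelled ovMUNC DM, replicate 1, in which all 10 GTPase genes were lower, had the lower Ifnb1 value and the higher Ifng value given below. The other pairs did not repeat this. In MYOD-/- labelled EV DM replicate 1 had the same order of both ligands, but 6 of the 10 genes were lower in it. In WT-labelled EV DM replicate 1 had the lower Ifnb1 value, and 5 of the 10 genes were lower in it. Ifna4 stood at 0.820 and 0.843 TPM in WT-labelled EV DM, at 0.0949 to 0.458 TPM in the 4 MYOD-/- labelled DM libraries, and was listed at 0 in the other 10. It passed the filter on low counts only through WT-labelled EV DM, so it had to be high there. Ifng stood at 2.50 and 0.878 TPM in MYOD-/- labelled EV DM and at 2.75 and 1.53 TPM in MYOD-/- labelled ovMUNC DM, against 0.0437 TPM or less elsewhere. Ifng was thus present in the 4 MYOD-/- labelled DM libraries, in which the GTPase genes were lower than in WT-labelled EV DM. Ifnz, another ligand gene, ranged from 0 to 0.720 TPM and had 0 counts in only 1 of the 16 libraries. All 21 ligands summed to 0.0861 to 0.851 TPM in GM, with the highest sum in WT-labelled EV. In DM the sum was 0.460 to 0.727 TPM in WT-labelled ovMUNC and 2.60 to 3.09 TPM in WT-labelled EV. It was 3.83 to 3.88 TPM in MYOD-/- labelled EV DM and 3.94 to 4.70 TPM in MYOD-/- labelled ovMUNC DM. The part of any ligand in the levels of the GTPases was not tested.

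**Figure D5:**
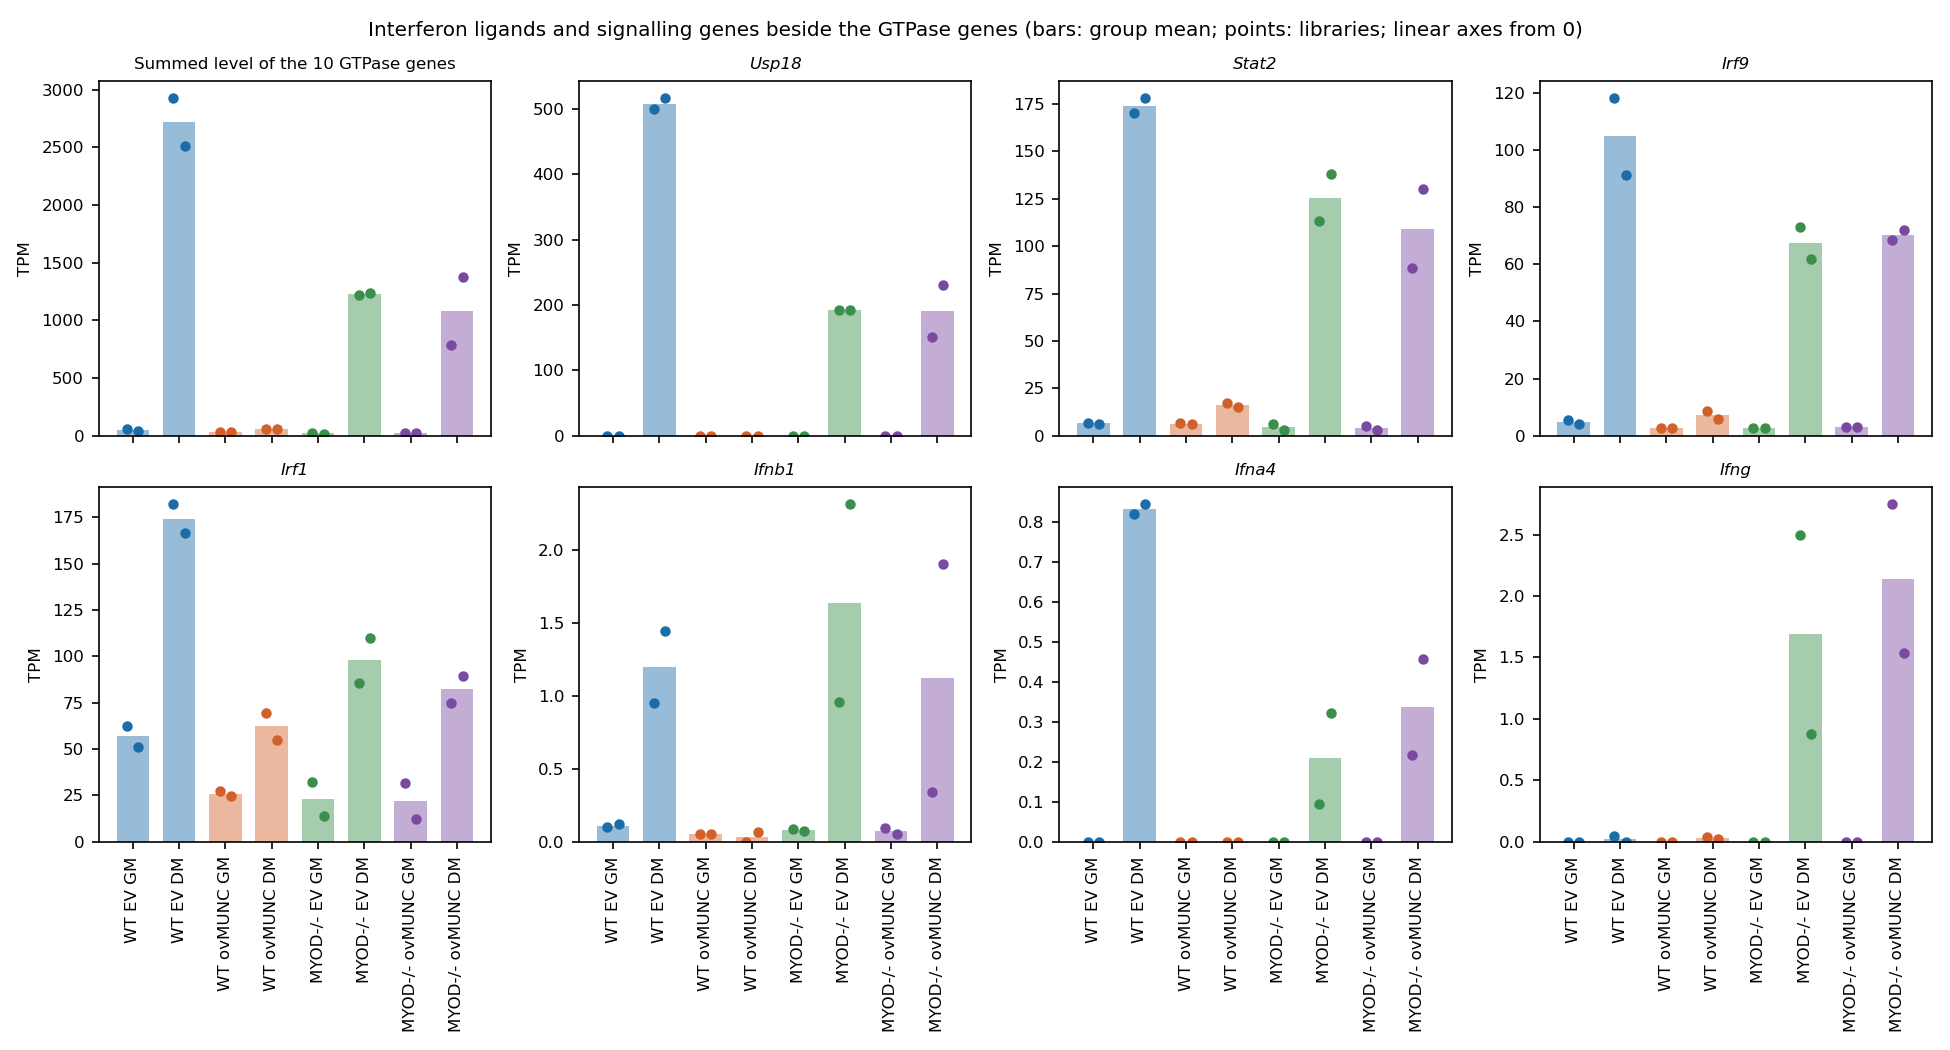
TPM on linear axes of the summed 10 GTPase genes, of Usp18, Stat2, Irf9 and Irf1, and of the ligands Ifnb1, Ifna4 and Ifng, with bars at group means and points for the 2 libraries. The GTPase sum is highest in WT-labelled EV DM at 2721 TPM, Stat2 stands at 170 and 178 TPM there and at 113 and 138 TPM in MYOD-/- labelled EV DM, and Ifng reaches 0.878 TPM or more in the 4 MYOD-/- labelled DM libraries and 0.0437 TPM or less in the others.

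Genes whose products work with the GTPases were compared last. With differentiation, 19.2% of all genes were called higher in WT-labelled EV cells (37.5% either way) and 20.5% in WT-labelled ovMUNC cells (39.8% either way). Of 13 autophagy genes tested, whose conjugation system guides IRG and guanylate-binding proteins to vacuoles, 8 rose in WT-labelled EV cells (median log2 fold change 0.53) and 8 rose and 1 fell in WT-labelled ovMUNC cells (0.59). Map1lc3b rose in both, by 1.02 ± 0.17 and 1.37 ± 0.17, and Gabarap by 0.92 ± 0.13 and 0.98 ± 0.13. Of 6 inflammasome genes tested, 4 rose and 1 fell in WT-labelled EV cells. Casp4, the caspase that senses bacterial lipopolysaccharide, rose by 6.06 ± 0.85 in WT-labelled EV cells and by 3.70 ± 0.73 in WT-labelled ovMUNC cells. It stood at 14.4 and 8.26 TPM in WT-labelled ovMUNC DM, which overlaps the 12.5 and 19.4 TPM in WT-labelled EV DM (adjusted p = 0.523 in edgeR's quasi-likelihood test).

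Markers of other cell types were checked over all libraries. The 8 leukocyte markers summed to 1.07 to 5.25 TPM in GM and to 0.992 to 4.10 TPM in DM. The defining marker Ptprc was at 0.0727 TPM or less, and counts of Adgre1 rounded to 0 in 14 of 16 libraries. Within DM the sum was 4.08 to 4.10 TPM in WT-labelled EV, 1.52 to 2.47 TPM in MYOD-/- labelled EV, 1.74 to 2.04 TPM in MYOD-/- labelled ovMUNC and 0.992 to 1.09 TPM in WT-labelled ovMUNC libraries. It was 3.47 to 5.25 TPM in WT-labelled EV GM, where the GTPase sum was low. A relation to the GTPase levels was not tested. The 4 endothelial markers summed to at most 7.34 TPM, with Tek at 1.65 to 6.84 TPM in the 4 MYOD-/- labelled DM libraries and at most 0.216 TPM in the 4 WT-labelled DM libraries. The 4 fibroblast-like markers summed to 76.8 to 228 TPM in GM and 166 to 5252 TPM in DM. Of them Ly6a stood at 5248 and 4669 TPM in WT-labelled EV DM, 340 to 724 TPM in the MYOD-/- labelled DM libraries and 158 and 257 TPM in WT-labelled ovMUNC DM, while Thy1 was at 0.0228 TPM or less. Cd34 ran the other way, at 1.96 to 2.20 TPM in WT-labelled EV DM and 82.5 to 136 TPM in the MYOD-/- labelled DM libraries. The 10 myoblast and myotube markers summed to 144 to 317 TPM in GM and 230 to 1361 TPM in DM. Of these Myog, which starts myotube formation, stood at 1.76 and 1.01 TPM in WT-labelled EV DM, 12.3 and 11.5 TPM in WT-labelled ovMUNC DM and 35.8 to 53.1 TPM in the MYOD-/- labelled DM libraries. The WT-labelled EV DM libraries had the highest GTPase levels and the lowest Myog of the DM groups. The WT-labelled ovMUNC DM libraries, with the lowest summed GTPase level of the DM groups, had less Myog than the MYOD-/- labelled DM libraries. A relation between Myog and the GTPase levels was not tested.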

How the data were processed

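The authors deposited 1 table per library with estimated counts, effective lengths and TPM for 35818 RefSeq transcripts, per the file headers. The submitters' processing notes name kallisto, bcl2fastq and mm10, without versions or kallisto's strand setting. Between 56.7% and 60.8% of the deposited estimated counts were whole (to within 1e-06). TPM was deposited by the authors and was used to compare genes.

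Transcripts were joined to symbols through RefSeq GRCm38.p6 (35492) or GENCODE M21 (188); 138 without a symbol, with 0.28% to 0.941% of the counts, were left out. Estimated counts were rounded after summing by symbol. The tests used edgeR 4.0.16 under R 4.3.3 (TMM, filterByExpr, 1 model over 16 libraries, quasi-likelihood F test) on 14972 genes in 16 comparisons, 4 of them interactions, with Benjamini-Hochberg adjustment over all genes tested and a threshold of 0.05. The script was tested on simulated data. The 95% intervals come from that fit, with 8 residual and 3.19 prior degrees of freedom, and cover the spread between libraries; floors of 3 counts cover counting error only. Alternatives were DESeq2 1.42.0, its size factors, 2 filters, a replicate block, limma 3.58.1 on log2(TPM + 1) and log2(TPM + 0.1), an effective length offset, Zrsr1 left out, and each library left out in turn. Where this left 1 library in a group, it was assumed to vary like the other groups.

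The members and lists were chosen with earlier results of these data known. Named were the 10 members, up to 4 genes per other list by mean TPM over 16 libraries, and the 5 genes most alike in pattern; further genes named beside these (Stat2, Irf9, Ciita, Myog, Thy1 and the remaining markers) were added for their role or after their values were seen; 1 signalling gene of the rule is not reported here. Promoters and motifs came from RefSeq tables (Biopython 1.88). Protein sequences were not used here.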

Additional observations from a re-analysis of the deposited data

Results flagged for a closer look

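Differences between lines in the response to differentiation passed the interaction test of edgeR for 18 pairs of a gene and a comparison. Between the genotype labels in EV cells the rise of Mx1 was smaller in MYOD-/- labelled cells, by -3.40 on the log2 scale.

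In ovMUNC cells the rise was larger in MYOD-/- labelled than in WT-labelled cells by 5.06 for Gbp2, 6.22 for Gbp3, 6.24 for Gbp7, 4.40 for Gm12250, 6.74 for Igtp, 3.62 for Irgm1, 5.83 for Irgm2 and 4.11 for Mx1. In WT-labelled cells the rise differed between ovMUNC and EV by -4.82 for Gbp2, -5.71 for Gbp3, -7.56 for Gbp7, -8.39 for Gm12250, -6.82 for Igtp, -7.57 for Iigp1, -2.95 for Irgm1, -6.28 for Irgm2 and -8.24 for Mx1. Both comparisons use the WT-labelled ovMUNC libraries. With 2 libraries a group, no search for outlying libraries was made.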

How the results depend on the processing

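The 10 calls of differentiation in the 3 lines other than WT-labelled ovMUNC, of the genotype label in ovMUNC DM and of ovMUNC in WT-labelled DM were made under all 13 alternatives, and comparisons with 0 calls had 0 under every alternative. No called fold change reversed; of 1164 recomputed values for called pairs 1081 stayed past the threshold and 83 did not.

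For differentiation in WT-labelled ovMUNC cells (5 called), limma on log2(TPM + 1) called 3 and DESeq2 7. For the genotype label in EV GM (1 called), DESeq2 called 5, no filter on low counts 3 and the replicate block 3. For the genotype label in EV DM (8 called), limma on log2(TPM + 0.1) called 5 and on log2(TPM + 1) 9. For ovMUNC in WT-labelled GM (2 called), DESeq2 called 4, limma on log2(TPM + 1) 0 and on log2(TPM + 0.1) 1. For the interaction of differentiation and genotype label in EV cells (1 called), DESeq2 and both limma fits called 2. For the interactions of genotype label in ovMUNC cells (8 called) and of ovMUNC in WT-labelled cells (9 called), these 3 fits each called 10. The cause was not tested.

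With single libraries left out, the counts ranged from 2 to 5 for differentiation in WT-labelled ovMUNC cells, 1 to 4 for the genotype label in EV GM, 2 to 4 in EV DM, 0 to 3 for ovMUNC in WT-labelled GM, and, for the interactions, 0 to 1 (genotype label, EV), 2 to 8 (genotype label, ovMUNC) and 3 to 10 (ovMUNC, WT-labelled).

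The labels do not say what a replicate number shares. Deviations of same-numbered libraries correlated from -0.0126 to 0.712 over 28 pairs of groups, with 23 above 0.1, and Zrsr1 took 0.00795% to 0.0348% of the counts in libraries numbered 1 against 1.49% to 13% in those numbered 2. Replicate number thus marked a difference shared across most pairs of groups. The 5 pairs that did not pass 0.1 all held MYOD-/- labelled ovMUNC DM (r from -0.0126 to 0.0955). Every pair among the other groups passed. The numbers were still not taken to pair the libraries, and the main fit had no block. A difference shared by replicate number was thus not modelled in it. With the block, the genes called rose from 4699 to 6014 for the genotype label in EV DM. For the interaction of differentiation and genotype label in EV cells they rose from 387 to 898. The shares of all genes given above are those without the block. The replicate block changed no other count of member calls than that of the genotype label in EV GM. Depth limits the GM values most, where 9 genes lay at 0 to 125 estimated counts per library.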
